A study of Mus musculus with 6 samples.

Results

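A set of 10 genes that p53 is known to activate was read in the livers of mice overdosed with acetaminophen (APAP) and of mice given saline. The 10 p53 target genes (Cdkn1a, Mdm2, Ccng1, Trp53inp1, Bax, Bbc3, Pmaip1, Phlda3, Sesn1 and Btg2) were taken by symbol from a table of 34745 genes, and all 10 were among the 13734 genes with enough reads to test. The rule takes genes by symbol and uses no measured value. No member passed edgeR's quasi-likelihood test at an adjusted p under 0.05, where 7.23% of all genes tested did. In both APAP libraries Btg2, Mdm2 and Bax exceeded their highest saline level, as did 24.0% of all genes tested. Trp53inp1 was under its lowest, as were 20.1% of all genes, and the other 6 members overlapped between groups. Cdkn1a, a widely used readout of p53, spanned a wider range among the saline libraries than between the groups.

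p53 is a transcription factor that is kept scarce in resting cells by MDM2, a ubiquitin ligase that marks it for degradation. Damage to DNA and other stresses activate kinases that release p53 from MDM2, and p53 then switches on genes that stop the cell cycle, repair damage, curb growth signals or start mitochondrial cell death. MDM2 is itself a p53 target, so the response feeds back on its own trigger. In the liver, APAP is converted to a reactive metabolite that depletes glutathione and damages the mitochondria of hepatocytes around the central vein, and surviving hepatocytes later re-enter the cell cycle.

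RNA-Seq was run on whole liver of wild-type (WT) C57BL/6J mice, 8 to 10 weeks old, that were fasted for 12 hours and then injected with APAP at 300 mg/kg or with saline, 12 hours before the tissue was taken from the APAP group. The series lists 3 samples per group. Of these, 2 APAP libraries (replicates 1 and 3) and 3 control libraries (WT1, WT2 and WT3) were analysed, and APAP replicate 2 was not analysed here. The control columns carry only the genotype name. With the remaining columns named after APAP, these were taken as the saline group, an assumption that underlies each fold change below. Both groups share the genotype and the fast, so APAP is the labelled difference. The statistics of the study name at least 3 biological repeats for every experiment, and the labels do not tie single libraries to animals. Each p-value therefore sets the group difference of a gene against an estimate of the variation between these libraries.

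Levels are given as CPM, the count of a gene in 1000000 reads of the TMM-normalized library size, in the order APAP replicate 1, APAP replicate 3, then WT1, WT2 and WT3. Total counts ran from 13378445 to 15976339, and a count of 3, taken as the limit of detection, was worth 0.176 to 0.269 CPM. Xist, which silences the X chromosome in female cells, was at 0.764 and 1.73 CPM after APAP, against 289.6, 914 and 882 CPM after saline. Of the 4 Y-linked genes read (Ddx3y, Eif2s3y, Uty and Kdm5d), all were higher in the APAP libraries, with Ddx3y at 79.0 and 61.7 CPM against 0, 0 and 0.0668 CPM. The methods name male mice, yet Xist was high and Y-linked genes near 0 in the saline libraries, and the reverse in the APAP libraries. These genes split the libraries by treatment group, so APAP and sex cannot be told apart in any comparison below, sex-linked or not. Whether WT1, WT2 and WT3 are the saline mice of the methods was not tested.

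The tissue was checked by markers of liver cells, and a marker is said to rise where it was higher at an adjusted p under 0.05. Over all genes tested, 7.23% passed that threshold in either direction. Alb, the albumin gene of hepatocytes, was at 51540 and 89800 CPM after APAP, against 129100, 95100 and 120400 CPM after saline, and the summed CPM of 6 hepatocyte markers was 65100 to 108000 with APAP and 115000 to 156000 with saline. The summed CPM of 8 neutrophil markers, led by S100a9, was 73.7 to 115 with APAP and 4.57 to 7.82 with saline, and all 6 of those tested rose. That of 6 cholangiocyte markers, led by Spp1, was 347 to 356 with APAP and 47.1 to 51.9 with saline, with 2 of 5 tested rising. These 3 sums did not overlap between the groups, the hepatocyte sum being lower and the other 2 higher after APAP. Of the 6 hepatocyte markers, 0 passed the adjusted p in either direction. Their log2 fold changes were below 0 for 5 and above 0 for 1, Apoa1 (0.57). The sums of the full lists that follow did overlap. Monocyte markers, led by Fn1, summed to 1460 to 2010 against 1180 to 1590 CPM, and 3 of 6 rose. Fn1 made up nearly all of this sum, and without it the other 5 markers summed to 48.2 to 51.6 CPM after APAP against 10.1 to 11.8 CPM after saline, without overlap. Kupffer cell markers, led by Cd5l, summed to 205 to 385 against 205 to 286 CPM, and sinusoidal endothelial markers, led by Fcgr2b, to 108 to 170 against 117 to 211 CPM. Stellate cell markers, led by Dcn, summed to 344 to 496 against 490 to 590 CPM, and lymphocyte markers, led by Cd79a, to 3.88 to 4.26 against 2.20 to 4.93 CPM. Without Dcn, the stellate cell sum was 151 to 289 against 292 to 338 CPM, also without overlap. No marker was at 0 in every library. The part of these cell types in the values of the p53 targets was not tested, and in whole tissue fewer cells of a type and less RNA per cell cannot be told apart.

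**Figure D1:**
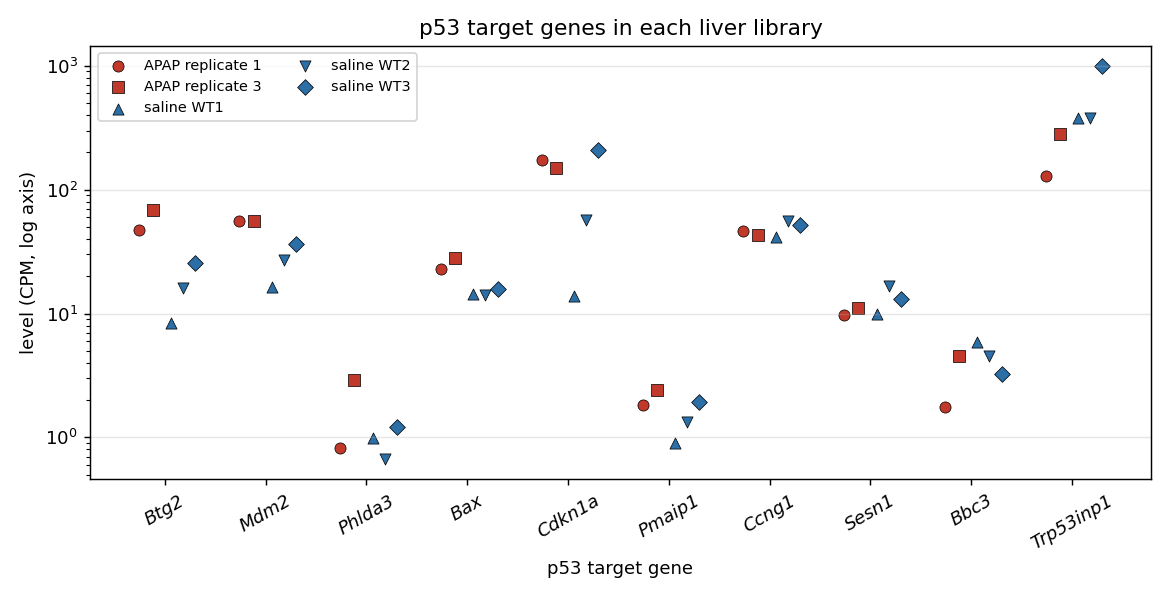
Level of each of the 10 p53 target genes (CPM, log axis) in the 2 APAP libraries (red) and the 3 saline libraries (blue), 1 symbol per library, with genes ordered by fold change. Btg2, Mdm2 and Bax have both red symbols above all blue ones and Trp53inp1 both below, and Cdkn1a runs from 13.9 to 209.7 CPM among the saline libraries.

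p53 binds DNA at pairs of a short palindromic half-site, and the half-site consensus was looked for in promoter windows from RefSeq (assembly GRCm38.p6), 250 bases before to 50 after a start site. Windows were found for 8 of the 10 genes, and Trp53inp1 and Pmaip1 had no entry. Of the 8 genes, 5 (62.5%) had a half-site in at least 1 of their windows, against 9.55% of 27025 genes, and 5 of the 12 member windows (41.7%) had one, against 8.36% of 32851 windows. The consensus is its own reverse complement, so 1 search covers both strands. The matches are shown because p53 is known to bind this half-site sequence, and they are those found within the windows. The rest of each gene was not searched. The half-site is in capitals, and each sequence is written 5′ to 3′ on the strand of its gene.
Cdkn1a, chr17:29090918-29090947, plus strand: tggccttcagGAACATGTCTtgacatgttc
Cdkn1a, chr17:29090896-29090925, plus strand: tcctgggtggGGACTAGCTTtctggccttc
Mdm2, chr10:117710925-117710954, minus strand: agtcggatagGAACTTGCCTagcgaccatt
Ccng1, chr11:40755452-40755481, minus strand: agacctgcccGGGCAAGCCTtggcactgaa
Bax, chr7:45467080-45467109, minus strand: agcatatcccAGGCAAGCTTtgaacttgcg
Sesn1, downstream start site, chr10:41887256-41887285, plus strand: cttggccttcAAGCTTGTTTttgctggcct
In the first Cdkn1a sequence the half-site lay 51 to 42 bases before the upstream start site and 2841 bases before the other start site, and the 10 bases that follow it matched the consensus at 9 positions. In the other sequences the next 10 bases matched at 3 to 7 positions. Only bases directly after a half-site were scored, so a second half-site that begins after a gap was not looked for. Bases before a half-site were not scored, so a second half-site on that side was not looked for either. No half-site was in the windows of Bbc3, Phlda3 and Btg2, which says only that these letters are absent from those bases. A match is a description of the sequence, and binding of p53 was not measured in these livers.

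The first question was how many of the 10 genes differed between APAP and saline. By the quasi-likelihood test with Benjamini-Hochberg adjustment over all genes, 0 of 10 passed, where 7.23% of the genes tested did. The authors' own thresholds (P under 0.05, a fold change of at least 1.5) are stated without an adjustment. At an unadjusted p under 0.05 with that fold change, 3 members (Btg2, Mdm2 and Bax) passed as higher, where 12.3% of all genes did, and 1 (Trp53inp1) passed as lower, where 11.2% did. The same 4 genes were those without overlap between the groups, 3 higher against 24.0% of all genes and 1 lower against 20.1%. Log2 fold changes were above 0 for 6 members and below 0 for 4. Their median was 0.69, beside 0.03 over all genes tested, and the median of their absolute values was 0.79 beside 0.44. Tests with another estimate of the spread called more members: edgeR's likelihood ratio and exact tests each called Mdm2, Bax and Btg2, and DESeq2 called those and Trp53inp1, while they called 1835, 1776 and 2093 genes in all, against 993.

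**Figure D2:**
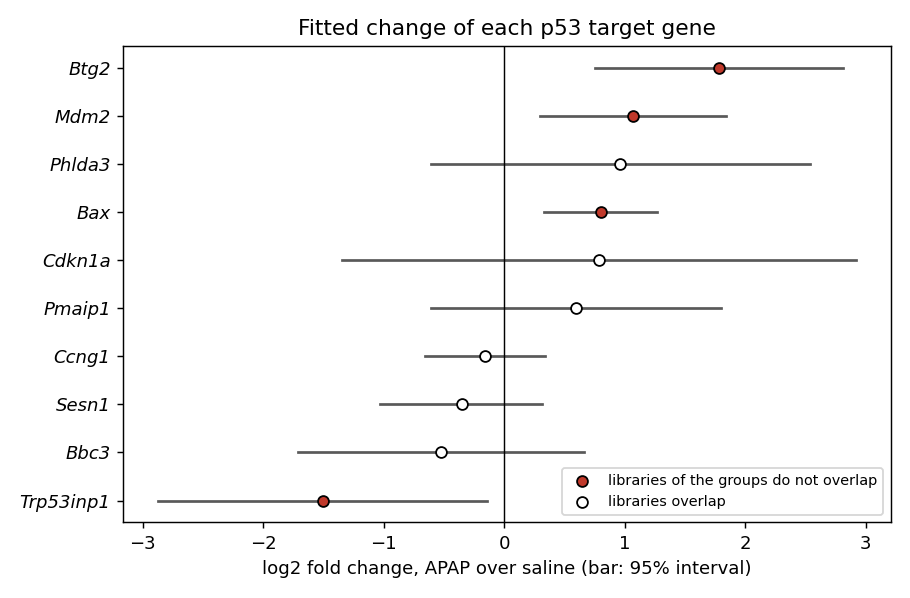
Log2 fold change of each p53 target gene, APAP over saline, with its 95% interval from edgeR's quasi-likelihood test (2 APAP and 3 saline libraries). The intervals of Btg2, Mdm2, Bax and Trp53inp1 leave out 0 before adjustment, and the interval of Cdkn1a runs from −1.35 to 2.92.

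Among the genes of cell cycle arrest, Cdkn1a and Btg2 were read first. Cdkn1a (ENSMUSG00000023067, chr17:29090979-29100722, plus strand, GRCm38) encodes p21, an inhibitor of cyclin-dependent kinases and the best known arrest gene of p53. It was at 172 and 151 CPM after APAP, against 13.9, 57.3 and 209.7 CPM after saline. The APAP libraries were alike, WT1 was far below them and WT3 was above both, so the groups overlapped. The mean was 161 ± 15.3 CPM (SD, n = 2) with APAP and 93.6 ± 103 CPM (SD, n = 3) with saline, and the log2 fold change was 0.78 ± 0.90 (SE, adjusted p = 0.643). Across the saline libraries the highest Cdkn1a level was 15.1 times the lowest, a ratio reached by 0.686% of the 7730 genes with at least 10 CPM in saline. WT3 was the library that set the comparison: without it the log2 fold change was 2.17 (adjusted p = 0.0993) and the groups no longer overlapped, while without WT1 it was 0.29. A gene model on the opposite strand overlaps Cdkn1a, and the strand setting of the counting is not given in the sources used here.

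Btg2 (ENSMUSG00000020423, chr1:134075170-134079120, minus strand) encodes an antiproliferative protein that recruits the deadenylation machinery to messenger RNA. Its level was 47.1 and 68.7 CPM with APAP and 8.43, 16.1 and 25.7 CPM with saline. Both APAP libraries were above every saline library, and the saline libraries kept the order WT1, WT2, WT3 that Cdkn1a had. Its log2 fold change was 1.78 ± 0.44 (SE, adjusted p = 0.0570), from a mean of 57.9 ± 15.3 CPM (SD, n = 2) with APAP and 16.8 ± 8.66 CPM (SD, n = 3) with saline, and this was the highest of the 10. Under the 13 alternative settings its adjusted p ran from 0.00264 to 0.208 and was under 0.05 in 8 of them, with a log2 fold change of 1.48 to 2.23.

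Mdm2 and Ccng1 belong to the arm that turns p53 down. Mdm2 (ENSMUSG00000020184, chr10:117688888-117710758, minus strand), the ubiquitin ligase of p53, was at 56.1 and 56.2 CPM after APAP, against 16.4, 27.1 and 36.7 CPM after saline. The APAP libraries were nearly equal and above all saline libraries, which again ran from WT1 up to WT3. The log2 fold change was 1.07 ± 0.33 (SE, adjusted p = 0.0996, 95% interval 0.30 to 1.84), a mean of 2.10 times that of saline, and the adjusted p was under 0.05 in 4 of 13 alternative settings. Ccng1 (ENSMUSG00000020326, chr11:40748552-40755311, minus strand) encodes cyclin G1, which directs a phosphatase to MDM2. It was at 46.2 and 43.0 CPM after APAP, against 41.4, 55.6 and 52.2 CPM after saline. The groups overlapped, its log2 fold change was −0.16 ± 0.21 (SE, adjusted p = 0.692), and the 95% interval of −0.66 to 0.34 left out a fold change of 1.5 upward. Scaled by library size alone, which moved the median of all genes from 0.03 to 0.42, Ccng1 was at 0.22.

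Bax, Bbc3 and Pmaip1 encode the proteins by which p53 opens the outer mitochondrial membrane: BAX forms the pore, and PUMA (Bbc3) and NOXA (Pmaip1) are BH3-only proteins that neutralize its inhibitors. Bax (ENSMUSG00000003873, chr7:45461695-45466898, minus strand) was at 23.1 and 28 CPM after APAP, against 14.3, 14.02 and 15.7 CPM after saline. The saline libraries were within a narrow range and both APAP libraries were above it. Its log2 fold change was 0.80 ± 0.20 (SE, adjusted p = 0.0593, 95% interval 0.33 to 1.27), a mean of 1.74 times that of saline, and 5 of 13 alternative settings gave an adjusted p under 0.05. Of the 50-base words of the longest coding Bax transcript, 13.8% also occur in Gm45808, an overlapping gene on the same strand. No gene of that name was among the 34745 genes with counts. The count of Bax is therefore uncertain, and the reads that the overlap could affect were not measured.

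Bbc3 (ENSMUSG00000002083, chr7:16309616-16318205, plus strand) was at 1.76 and 4.57 CPM after APAP, from 30 and 74 reads, against 5.92, 4.52 and 3.27 CPM with saline, from 66, 68 and 49 reads. Only APAP replicate 1 was below the saline range. Its log2 fold change of −0.52 ± 0.50 (SE, adjusted p = 0.568) turned to 0.0092 without that library. Pmaip1 (ENSMUSG00000024521, chr18:66458604-66465550, plus strand) was at 1.82 and 2.41 CPM after APAP, against 0.896, 1.33 and 1.94 CPM after saline, from 31 and 39 reads against 10, 20 and 29. WT3 lay between the APAP libraries, and the log2 fold change was 0.60 ± 0.51 (SE, adjusted p = 0.520). The 95% intervals were −1.71 to 0.66 for Bbc3 and −0.61 to 1.80 for Pmaip1, so a fold change of 1.5 in either direction was within both. These libraries therefore do not settle whether either gene differed by that much.

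Trp53inp1, Sesn1 and Phlda3 act on autophagy, redox balance and growth signals. Trp53inp1 (ENSMUSG00000028211, chr4:11156431-11174379, plus strand) encodes a stress protein that works with p53 in the nucleus and in autophagy, and it was the most abundant member in saline. It was at 129 and 284 CPM after APAP, against 376, 377 and 1003 CPM after saline. Both APAP libraries were below all saline libraries, among which WT3 stood well above the others. The log2 fold change was −1.50 ± 0.58 (SE, adjusted p = 0.166, 95% interval −2.87 to −0.14), and the saline mean was 2.84 times the APAP mean. Without WT3 it was −0.87, and without APAP replicate 3 it was −2.19, so the direction held while the size depended on these libraries. Scaled by library size alone, the groups overlapped for Trp53inp1. With TMM scaling, Trp53inp1 was opposite in direction to Btg2, Mdm2 and Bax, the other members without overlap.

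Sesn1 (ENSMUSG00000038332, chr10:41810574-41908424, plus strand), a sestrin that restrains mTORC1 signalling, was at 9.70 and 11.1 CPM after APAP, against 9.95, 16.8 and 13.1 CPM after saline. The groups overlapped at WT1, and the log2 fold change was −0.35 ± 0.28 (SE, adjusted p = 0.492), which scaling by library size alone moved to 0.0072. Phlda3 (ENSMUSG00000041801, chr1:135766119-135769136, plus strand) encodes a small protein that competes with AKT for membrane lipids. It was at 0.823 and 2.90 CPM with APAP, from 14 and 47 reads, and at 0.986, 0.664 and 1.20 CPM with saline, from 11, 10 and 18 reads. Only APAP replicate 3 was above the saline range, and the log2 fold change of 0.96 ± 0.66 (SE, adjusted p = 0.424) became −0.22 without that library.

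**Figure D3:**
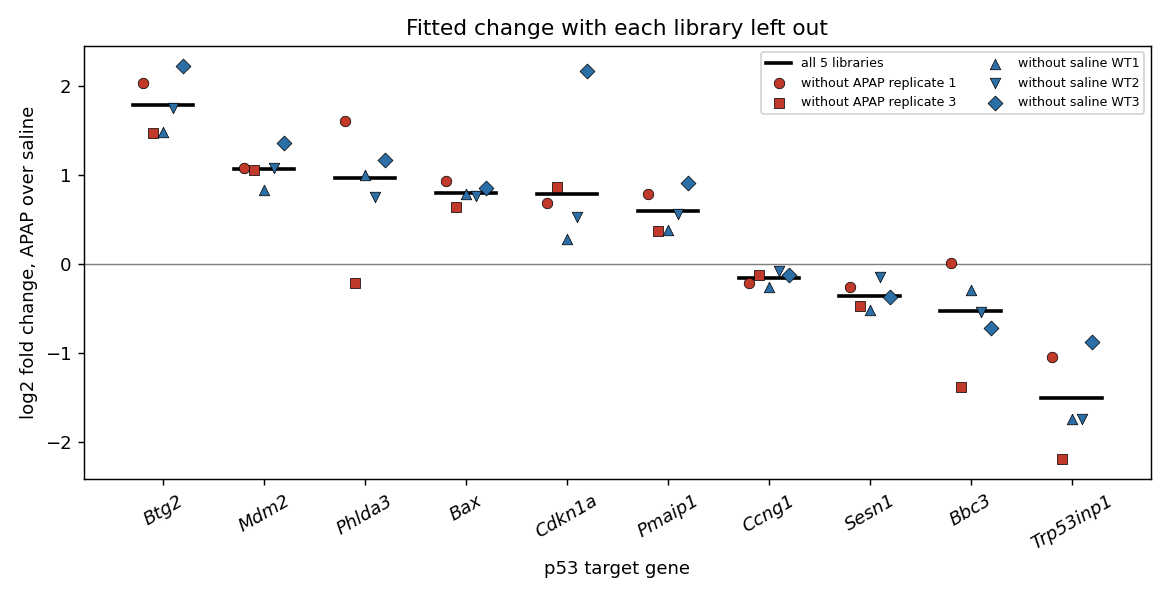
Log2 fold change of each p53 target gene with all 5 libraries and with each library left out in turn. Btg2, Mdm2, Bax, Pmaip1 and Cdkn1a stay above 0 and Trp53inp1, Sesn1 and Ccng1 below 0 in every refit, Phlda3 and Bbc3 cross 0, and Cdkn1a moves from 0.29 to 2.17.

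Saline livers differed from each other in some members far more than in others. WT3 was the highest saline library for 7 of the 10 genes, where it was the highest for 36.1% of all genes tested, and WT1 was the lowest for 7, where it was the lowest for 39.8%. Cdkn1a, Mdm2, Btg2, Pmaip1 and Trp53inp1 all ranked WT1, WT2 and WT3 in this order, with WT1 and WT2 nearly equal for Trp53inp1. Between saline libraries these genes differed by a factor of up to 15.1, for Cdkn1a, while Bax hardly differed. Per kilobase of exon, the mean levels in saline ran from 90.4 CPM per kb for Trp53inp1, 26.4 for Cdkn1a, 14.2 for Ccng1 and 9.30 for Bax down to 0.610 for Phlda3 and 0.508 for Pmaip1. With APAP, Cdkn1a came first at 45.4 CPM per kb, followed by Trp53inp1 at 31.9, Btg2 at 21.1, Bax at 16.2, Ccng1 at 12.7 and Mdm2 at 11.1. Sesn1 followed at 2.61, and the BH3-only genes and Phlda3 were lowest, at 1.49 CPM per kb or less.

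The next question was whether p53 itself and its regulators differed. Trp53, the gene of p53, was at 23.9 and 25.6 CPM after APAP, against 15.8, 11.7 and 14.2 CPM after saline. Both APAP libraries were above all saline libraries, and the log2 fold change was 0.83 ± 0.21 (SE, adjusted p = 0.0635, under 0.05 in 4 of 13 alternative settings). Mdm4, the partner of MDM2 that holds p53 inactive, was at 60.3 and 52.9 CPM against 35.5, 62.4 and 65.9 CPM, with overlapping groups and a log2 fold change of 0.05 ± 0.30 (SE, adjusted p = 0.937). Usp7, which removes ubiquitin from p53 and MDM2, was the most abundant gene of this list, with a log2 fold change of 0.33 (adjusted p = 0.389). Of the 10 tested among 12 genes of p53, its kinases and its regulators, 0 passed the adjusted p, where 7.23% of all genes did. Without overlap, 3 were higher and 1 was lower, beside 24.0% and 20.1% of all genes, and the median log2 fold change was 0.19. The amount and phosphorylation of the p53 protein were not measured here.

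Other p53 targets gave a mixed picture. Of 21 targets of arrest, repair and metabolism, 2 rose, 1 fell and 18 did not pass the adjusted p, where 7.23% of all genes passed. Their median log2 fold change was 0.0009. Gadd45a, a stress sensor that acts in DNA repair and arrest, was at 12.9 and 15.2 CPM after APAP, against 3.23, 3.06 and 2.21 CPM after saline (log2 fold change 2.31 ± 0.29, SE, adjusted p = 0.00867). Gdf15, a secreted stress hormone, was at 18.4 and 36.0 CPM against 2.78, 5.98 and 5.34 CPM (2.52 ± 0.41, SE, adjusted p = 0.0187). Both stood clear of the saline range, and both have regulators other than p53. The call of Gadd45a was lost without WT2 (adjusted p = 0.0548), and that of Gdf15 without APAP replicate 3 (0.0806) or WT2 (0.0729). Ephx1, microsomal epoxide hydrolase of xenobiotic metabolism and the most abundant gene of the list, fell from 537, 349 and 429 CPM to 134 and 203 CPM (−1.38 ± 0.32, SE, adjusted p = 0.0492), and its adjusted p was under 0.05 in 6 of 13 alternative settings.

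Of 12 further p53 targets of cell death, 0 passed the adjusted p (7.23% of all genes did). Without overlap, 3 were higher and 1 lower (24.0% and 20.1% of all genes), and the median log2 fold change was 0.44. Ei24, an endoplasmic reticulum protein and the most abundant of them, was at 191 and 124 CPM after APAP, against 288, 253 and 232 CPM after saline (−0.71 ± 0.27, SE, adjusted p = 0.170). Of the BCL-2 family outside the members, 12 of 14 genes were tested. Where 7.23% of all genes passed the adjusted p, 1 of these 12 rose. This was Mcl1, an inhibitor of BAX and BAK and the most abundant of the family, at 238 and 250.2 CPM with APAP and 104, 112 and 134 CPM with saline (1.07 ± 0.22, SE, adjusted p = 0.0376). It did not pass the adjusted p in 4 of 13 alternative settings.

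Downstream of p21, the genes of proliferation were read. Of 9 tested among 14 cell cycle genes that p21 is known to repress, 0 passed the adjusted p (7.23% of all genes did). Their median log2 fold change was 0.19. Mki67, the proliferation marker and the most abundant of them, was at 3.70 and 1.98 CPM after APAP, against 0.269, 2.19 and 1.74 CPM after saline, with overlapping groups (0.995 ± 0.76, SE, adjusted p = 0.470). Of 10 tested among 12 CDK inhibitors and G1 cyclins, 0 passed the adjusted p, beside the same 7.23% of all genes. Ccnd1, cyclin D1 of G1 entry and the most abundant of these, was at 69.3 and 121 CPM with APAP against 24.2, 17.9 and 4.68 CPM with saline, without overlap (2.62 ± 0.61, SE, adjusted p = 0.0506, under 0.05 in 7 of 13 alternative settings).

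Paralogs of the members were compared last. Of 7 tested among 8 genes related to Btg2, Sesn1, Phlda3 and Trp53inp1, 1 rose and 1 fell, against 7.23% of all genes called. Phlda1, a relative of Phlda3 that many growth and stress signals induce, rose to 51.5 and 56.1 CPM from 11.7, 19.7 and 14.9 CPM (1.80 ± 0.25, SE, adjusted p = 0.0127), from a far higher level than Phlda3 had, and leaving out APAP replicate 1 or 3 moved its adjusted p to 0.0593 or 0.0543. Tob1, of the same antiproliferative family as Btg2, fell to 93.0 and 88.9 CPM from 230.3, 158 and 222 CPM (−1.16 ± 0.26, SE, adjusted p = 0.0450), and passed in 7 of 13 alternative settings. Relative to saline, Btg2 was above and Tob1 below. Trp53inp2, the paralog of Trp53inp1 and the most abundant of the list, overlapped between groups with a log2 fold change of −0.06 (adjusted p = 0.929).

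**Figure D4:**
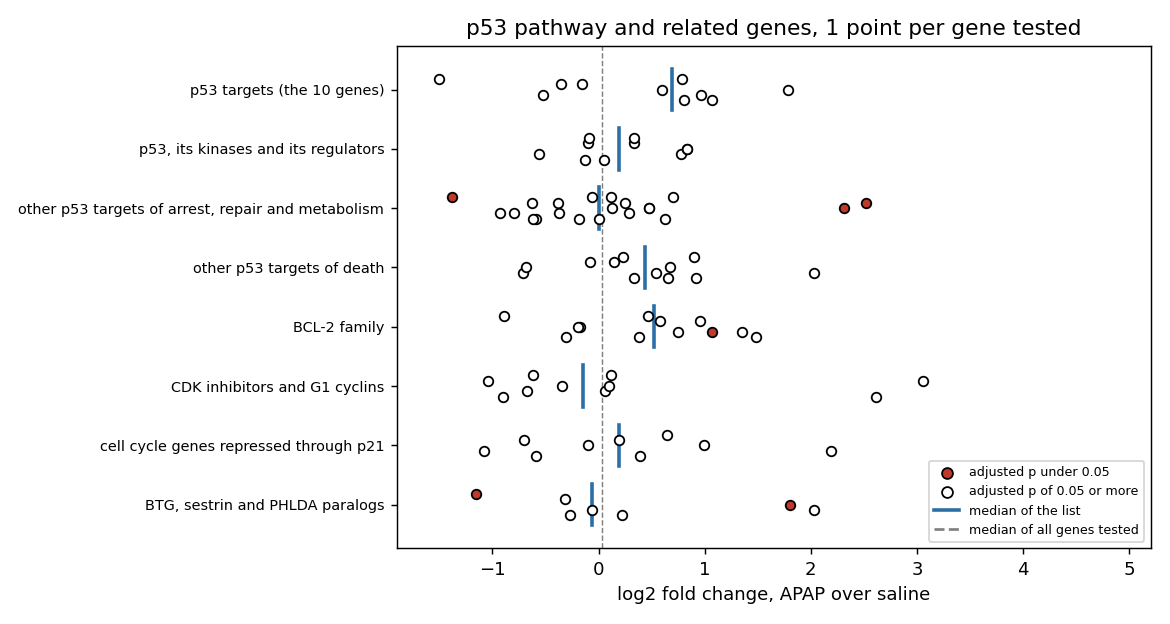
Log2 fold change, APAP over saline, of every tested gene in the p53 target list and 7 related lists, 1 point per gene, filled where the adjusted p of edgeR's quasi-likelihood test is under 0.05, with blue bars for list medians and a dashed line for the median of all genes (0.03). The p53 targets have no filled point and a median of 0.69, and the filled points are Gadd45a, Gdf15, Ephx1, Mcl1, Phlda1 and Tob1.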

How the data were processed

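The authors sequenced liver RNA on an Illumina NovaSeq platform, aligned reads with HISAT2 and deposited raw counts per gene, without normalization. The genome build is GRCm38 (mm10) in the submitters' processing notes. Annotation release, strand setting and program versions are not given in the sources used here. The table also holds 5 columns of FPKM, which were not used, since the counts fit the tests and 1 kind of value per library was kept. The saline count columns were used as replicates of their group, without a sample number.

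The statistics used edgeR 4.0.16 (R 4.3.3). Low genes were removed with filterByExpr, at a minimum count of 10 and a minimum total of 15. The rest were scaled by TMM and compared by the quasi-likelihood test (glmQLFit, glmQLFTest) with Benjamini-Hochberg adjustment over all genes tested. Each SE was derived from the F statistic. The design assumed 3 libraries in each group and was not altered for the 2 APAP libraries. Scripts were tested on simulated data. Libraries of a group differed by more than sampling noise. Floors cover counting error only.

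All 10 members were named, as were Trp53 and Mdm4, each gene of the related lists with an adjusted p under 0.05, the most abundant gene of each list, the most abundant marker of each cell type and the sex-linked genes. Members and lists were chosen with earlier results of these data known. The alternatives tried were DESeq2 1.42.0, the exact and likelihood ratio tests of edgeR, other scalings and filters, and the omission of single libraries. Python 3.11.15 and matplotlib 3.10.9 were used for sequences and plots.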

Additional observations from a re-analysis of the deposited data

How the results depend on the processing

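With 2 APAP libraries the quasi-likelihood test called 993 of 13734 genes and 0 of the 10 p53 targets. The likelihood ratio test called 1835 genes and 3 targets, the exact test 1776 and 3, DESeq2 2093 and 4, and an unadjusted p under 0.05 with a fold change of at least 1.5 gave 3228 and 4. Upper-quartile factors called 2 targets (Bax and Btg2; 7.30% of all genes), library size alone 2 (the same genes; 9.75%), no filter beyond 1 count 1 (Btg2; 7.03%) and a filter of 10 counts in every library 1 (Btg2; 8.67%). With 1 library left out, 165 (WT2), 235 (APAP replicate 1), 401 (APAP replicate 3), 510 (WT1) and 922 (WT3) genes and 0 to 2 targets were called, the 2 (Mdm2 and Btg2) without WT3, and 4 to 6 targets did not overlap between groups, where 51.4% to 65.4% of all genes did not. A lone APAP library was then assumed to vary like the saline group. Library size alone moved the share of called genes that were higher from 51.2% to 77.8%.

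Of 130 target values under alternatives, 108 kept their direction and side of the threshold, 18 passed the threshold anew, none lost it, since none had passed, and 4 reversed. The reversed target values were Ccng1 (0.22) and Sesn1 (0.0072) under library size alone. The others were Bbc3 without APAP replicate 1 (0.0092) and Phlda3 without APAP replicate 3 (−0.22). Among genes outside the targets, Trp53inp2 (0.31) and Dcn (0.21) reversed under library size alone. With 1 library left out, log2 fold changes that crossed 0 ran from −1.38 to 0.0092 for Bbc3, −0.22 to 1.61 for Phlda3, −0.17 to 0.21 for Mdm4, −0.23 to 0.18 for Trp53inp2, −0.0036 to 0.48 for Fn1, −0.46 to 0.67 for Cd5l and −0.20 to 0.92 for Cd79a. The cause was not tested. No paired analysis was possible by replicate number, because the saline columns carry names that cannot be matched to the numbered saline samples. Neither the labels nor the methods state that equal replicate numbers pair an APAP mouse with a saline mouse.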

Other observations

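These genes of the related lists were chosen after their values were seen. Plk3, a stress kinase, was at 61.4 and 97.1 CPM after APAP, against 70.8, 45.4 and 248.7 CPM after saline, so that WT3 was the highest saline library as it was for Cdkn1a. Bcl2l1, which encodes the BAX inhibitor BCL-XL, was at 80.0 and 46.4 CPM after APAP, against 19.5, 14.7 and 33.7 CPM after saline, without overlap, and its log2 fold change of 1.48 had an adjusted p of 0.0718 in edgeR's quasi-likelihood test. Aen, an apoptosis nuclease, differed between the APAP libraries, at 39.1 and 5.69 CPM, around saline values of 12.0, 16.3 and 14.4 CPM. Sesn2, a paralog of Sesn1, was at 13.6 and 13.9 CPM after APAP, against 14.5, 14.2 and 12.6 CPM after saline, a log2 fold change of 0.0009.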
